A study of Sus scrofa with 12 samples.

Results

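The genes described here are the collagen genes of cultured smooth muscle cells from pig coronary artery, measured by RNA sequencing. They were taken as all rows of the deposited count table whose Ensembl gene identifier carries a pig symbol of the form COL, number, A, number. This found 37 of the 21153 genes in the table. The table of names holds 40 such symbols, and the identifiers of the other 3 (COL4A1, COL6A2 and COL19A1) had no row in the count table used here. No value below covers these 3 genes. Of the 37 genes, 28 passed a filter on low counts that 12444 genes of the table passed.

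The cells were isolated from 3 animals, and the sources used here give neither age nor breed nor sex. They are labelled as differentiated and contractile, were used between passages 6 and 11, and were seeded at 60 cells per mm2 into 35 mm dishes with 10% fetal calf serum. After 24 h the cells of 3 of the 4 groups were treated for 4 h: with PDGF-BB at 30 ng/ml, with S100A4 protein (written oS100A4 in the series' design text) at 1 µg/ml, or with both at these doses. PDGF-BB is a platelet growth factor that makes smooth muscle cells divide and migrate, and S100A4 is a small calcium-binding protein that cells also release. The control group received neither protein, and the culture conditions above are given for all 4 groups. Each group had 3 libraries numbered 1 to 3, 12 in all. The labels do not say which animal gave which number. In the fit on groups alone, what the p-values measure is thus the spread among the 12 libraries, part of which may be technical. In the fit with the replicate number as a block, described below, it is the spread left once differences between replicate numbers are removed. All are passaged cells grown outside the vessel wall. In such bulk cultures, fewer cells of a type and less RNA per cell cannot be told apart.

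Collagens are secreted proteins in which chains with a repeated glycine pattern wind into a triple helix. Fibrillar collagens (types I, II, III, V, XI, XXIV and XXVII) assemble into fibrils, and fibril-associated collagens sit on the surface of the fibrils. Type IV forms the sheet-like network of basement membranes, type VI forms beaded filaments around cells, type VIII forms a short-chain network that is a known product of vascular cells, and the multiplexins XV and XVIII lie in the basement membrane zone. Transmembrane collagens stay anchored in the cell surface. Smooth muscle cells make most of the collagen of the arterial media.

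Libraries held 21455021 to 32448438 counts. Levels are CPM (counts divided by library size, scaled by the trimmed mean of M-values), and values of a group are listed in the order of replicates 1, 2 and 3. CPM is not divided by transcript length, so levels of different genes are not ranked against each other. Differences are log2 fold changes ± standard error, tested with edgeR's quasi-likelihood test (two-sided, Benjamini-Hochberg adjustment over the 12444 genes, threshold 0.05, n = 3 libraries per group). The first fit uses the 4 groups alone. The second adds the replicate number as a block, so that each treated library is set against the control library of its own number. Libraries with the same number deviated from their group means together (r = 0.746 to 0.908 across genes in 18 pairs, against −0.676 to 0.136 in 36 pairs with different numbers), and edgeR's common estimate of variation between libraries (as a coefficient of variation) fell from 27.2% to 5.14% when the block was added. Replicate 2 stood apart from the others in all 4 groups, so calls that ended without it, or without another library, are named beside the result. Among the 18 tested collagen genes with a mean of at least 10 CPM, standard errors with the block ran from 0.03 to 0.13 for PDGF-BB against control, and among the 10 under that level from 0.12 to 0.47.

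The fibrillar class held 9 tested members. COL1A1 and COL1A2, the chains of type I collagen, had means of 31001 ± 8149 and 22146 ± 2721 CPM in the control libraries (mean ± SD, n = 3). COL3A1, the chain of type III, had 14835 ± 276 CPM. The type V chains COL5A1, COL5A2 and COL5A3 had 4911 ± 469.7, 5764 ± 165 and 183 ± 99.3 CPM. The type XI chain COL11A1 stood at 66.2 ± 35.7 CPM, and the minor fibrillar genes COL27A1 and COL24A1 at 12.8 ± 4.17 and 6.50 ± 0.702 CPM. The cartilage-type fibrillar genes COL2A1 and COL11A2 had at most 25 and 2 counts in any library and were not tested.

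In the basement membrane class, control means were 3067 ± 766 CPM for COL4A2 and 22.5 ± 7.91 CPM for COL4A5. COL4A4 and COL4A6 were near the filter, with 6 to 37 and 0 to 39 counts, and COL4A3 (0 to 12 counts) was not tested. Of the type VI chains, COL6A1 had 5013 ± 1144 CPM and COL6A3 1134 ± 506 CPM, while COL6A5 and COL6A6 reached at most 29 and 65 counts. Among fibril-associated genes, COL16A1, COL14A1 and COL12A1 had 875 ± 61.8, 764 ± 157 and 601 ± 284 CPM, and COL9A3 had 4 to 20 counts. COL8A1 had 1945 ± 199.5 CPM and its partner COL8A2 1.00 ± 0.223 CPM. The multiplexins COL15A1 and COL18A1 had 2054 ± 510.0 and 50.1 ± 8.64 CPM. The transmembrane genes COL17A1, COL23A1 and COL13A1 had 2.84 ± 2.43, 1.01 ± 0.498 and 0.685 ± 0.690 CPM.

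The other untested members had few counts in every library: COL21A1 had 3 to 13, COL9A1 0 to 5 and COL10A1, a marker of hypertrophic cartilage, 0 to 6. COL22A1, COL25A1 and COL28A1 had 0 counts in all 12 libraries.

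**Figure D1:**
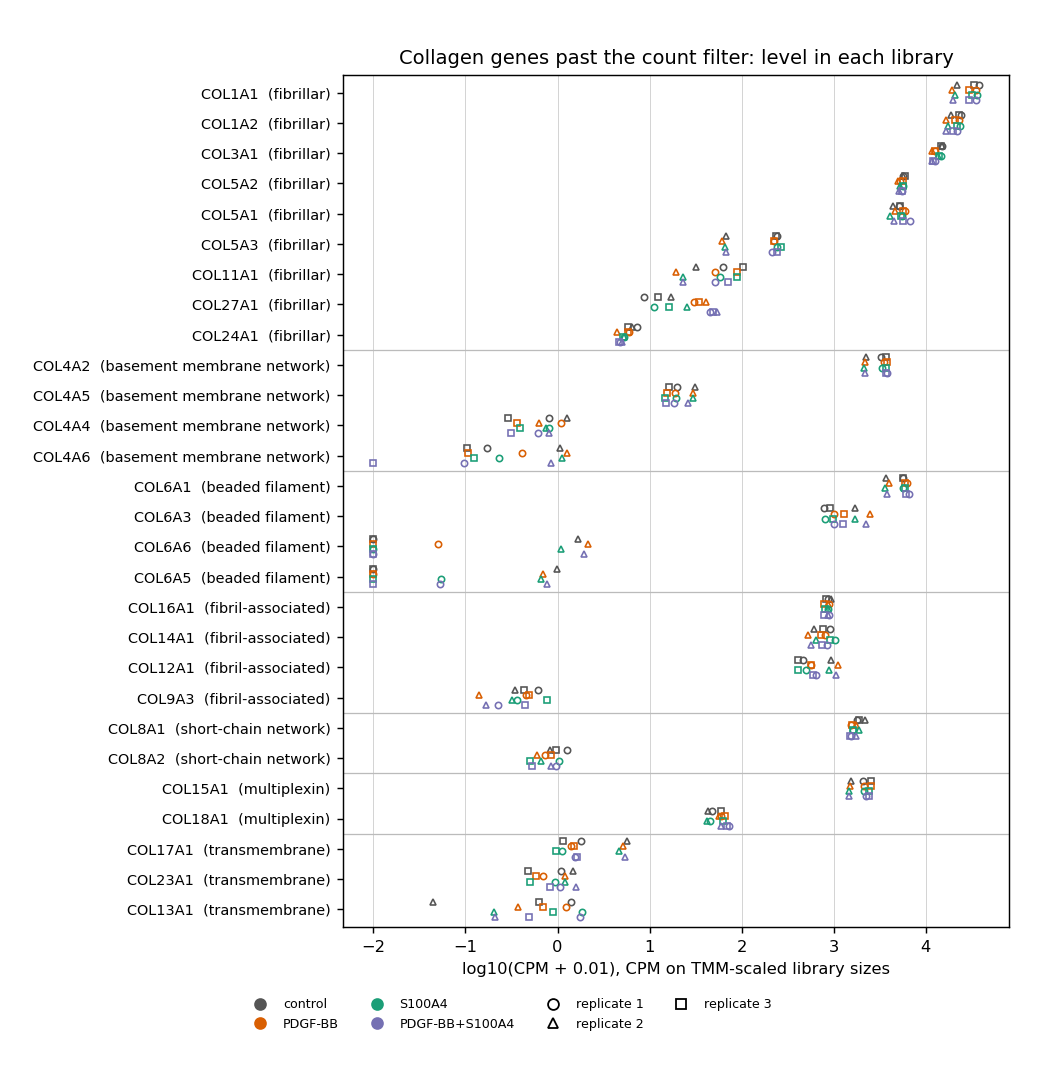
Level of each of the 28 tested collagen genes in each of the 12 libraries, as log10(CPM + 0.01) on the horizontal axis, with genes in rows grouped by class, colours for the 4 groups and symbols for the replicate number. Points of one gene mostly spread by replicate number, with the triangles of replicate 2 apart from the rest in COL5A3, COL6A3 and COL12A1, whereas in COL27A1 they spread by group.

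Reads on the 37 collagen genes made up 10.6, 8.52 and 9.84% of all counts in the control libraries, 9.61, 7.49 and 8.82% with PDGF-BB, 10.3, 8.01 and 9.66% with S100A4 and 9.31, 7.30 and 8.49% with both. Each treated library lay below the control library of its number. The differences in percentage points were −0.99, −1.03 and −1.02 for PDGF-BB, −0.35, −0.50 and −0.19 for S100A4 and −1.29, −1.21 and −1.35 for both. COL1A1, COL1A2 and COL3A1 alone made up 7.85, 5.95 and 7.04% of control counts. These are shares of raw counts, without the scaling used for CPM. The scaling factors were 1.02, 1.06 and 0.989 in control, 0.965, 1.04 and 0.956 with PDGF-BB and 0.928, 1.02 and 0.944 with both. They were thus lower in each pair for these 2 treatments, and on the CPM scale collagen fell less than its share did. The share is given as a description, with no test.

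With PDGF-BB, COL27A1 was the collagen gene that changed in both fits. COL27A1 encodes a fibrillar collagen known mainly from cartilage, and it lies at chr1:254768576-254924893 of Sscrofa11.1 in the RefSeq annotation. It stood at 8.73, 17.1 and 12.5 CPM in the control libraries and at 30.2, 41.1 and 34.6 CPM with PDGF-BB. Every PDGF-BB library was above every control library. COL27A1 rose by 1.47 ± 0.30 in the fit on groups alone (edgeR, adjusted p = 0.00908) and by 1.48 ± 0.13 with the replicate block (adjusted p = 6.1e-07, 2.80-fold). In the fit on groups alone the call ended without replicate 1 of all groups (adjusted p = 0.0837) and without replicate 3 (adjusted p = 0.169), whereas with the block it held in each of the 16 settings tried.

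COL27A1 was 1 of 28 tested collagen genes called in the fit on groups alone, where 14.7% of all genes tested were called. With the block, 13 of 28 were called, 6 higher and 7 lower, where 48.8% of all genes were called, 24.3% higher and 24.5% lower. The share of collagen genes called was thus below or near that of all genes in either fit. The median log2 fold change of the 28 was −0.10, beside −0.02 over all genes. All 3 same-numbered pairs differed in 1 direction in 18 of the 28, beside 69.3% of all genes. By class, with the block, 2 fibrillar genes rose and 5 fell of 9, 2 beaded-filament genes rose of 4, 1 fibril-associated gene rose and 1 fell of 4, 1 short-chain gene fell of 2, 1 multiplexin rose of 2, and none of the 4 basement membrane or 3 transmembrane genes passed. With upper-quartile scaling in place of the trimmed mean, the block called 14, of which 4 were higher and 10 lower, and COL5A1 and COL6A1 were positive but not called. On groups alone this scaling shifted the median log2 fold change of all genes by −0.051, so the tilt is not particular to collagen genes. Without replicate 2 the block fit called 11, 6 higher and 5 lower.

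Some markers of other cell types and of smooth muscle also differed with PDGF-BB. The calls below stand beside 14.7% of all genes called on groups alone. With the block the share was 48.8%, with 24.3% higher and 24.5% lower. The endothelial list, of which 5 of 7 genes were tested, summed to 55.3 to 139.6 CPM in control, 121 to 220.2 CPM with PDGF-BB and 133 to 208 CPM with both. Within it ERG stood at 35.7, 73.0 and 42.8 CPM in control and at 101, 142 and 111 CPM with PDGF-BB. The defining junction genes PECAM1 (3.58, 19.8 and 10.2 CPM in control, 3.68, 24.0 and 11.3 with PDGF-BB) and CDH5 (15.9, 32.2 and 23.6 CPM in control, 15.3, 33.8 and 23.9 with PDGF-BB) overlapped between the groups, and KDR stood at or near 0. With the block, 2 of the 5 tested genes rose with PDGF-BB, ERG and TIE1, while PECAM1, CDH5 and TEK did not pass. In replicate 2 TIE1 stood at 13.1 CPM in control and at 19.2 CPM with PDGF-BB, and it was low in the other replicates. Of the 8 smooth muscle markers, all tested, SMTN fell with PDGF-BB on groups alone, and with the block SMTN, LMOD1, MYH11 and MYOCD fell and DES rose. SMTN, which encodes smoothelin, stood at 435, 402 and 538 CPM in control and at 299, 245 and 308 CPM with PDGF-BB (−0.69 ± 0.05 with the block). The summed level of the list, most of it ACTA2, was 9303 to 21892 CPM in control and 8020 to 19892 CPM with PDGF-BB. Of 5 pericyte markers, all tested, CSPG4 rose (662, 221 and 855 CPM in control, 1247, 349 and 1380.4 with PDGF-BB) and NOTCH3 and ABCC9 fell with the block. Of 7 fibroblast markers, all tested, TCF21 (10.9, 9.19 and 15.3 CPM in control, 22.2, 16.0 and 29.9 with PDGF-BB) and DPT rose and LUM and PI16 fell with the block. With both proteins TCF21 also rose on groups alone (1.46 ± 0.30, edgeR, adjusted p = 0.00595) and SMTN fell (−0.83 ± 0.14, adjusted p = 0.00273), where 22% of all genes were called. Calls of markers, here and below, were not rechecked with libraries left out. These markers were named after their values were seen, and their part in the collagen changes was not tested.

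Of the fibrillar genes, COL3A1 stood at 15042, 14942 and 14521 CPM in control and at 12705, 11671 and 12572 CPM with PDGF-BB. The 2 groups did not overlap, which held for 3 of the 28 collagen genes and for 29.8% of all genes tested. With the block COL3A1 fell by 0.27 ± 0.03 (adjusted p = 1.1e-05), while the fit on groups alone gave adjusted p = 0.0645.

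The type I chains differed less between the groups than between replicates. COL1A1 stood at 37590.5, 21889.9 and 33523 CPM in control and at 35533, 19535 and 29926 CPM with PDGF-BB, and COL1A2 at 24216, 19064 and 23159 CPM in control and at 22934, 16727 and 20682 CPM with PDGF-BB. Each PDGF-BB library was below the control library of its number, and the groups overlapped. With the block COL1A1 fell by 0.14 ± 0.03 (adjusted p = 0.00220) and COL1A2 by 0.14 ± 0.03 (adjusted p = 0.00125). Neither passed in the fit on groups alone (adjusted p = 0.877 and 0.715), and the COL1A1 call with the block ended without replicate 3 (adjusted p = 0.0570).

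The type V chains went in opposite directions. COL5A1 stood at 5145, 4371 and 5219 CPM in control and at 6041, 4694 and 5741 CPM with PDGF-BB, and rose by 0.16 ± 0.05 with the block (adjusted p = 0.0176). COL5A2 stood at 5629, 5715 and 5947 CPM in control and at 5329, 4977 and 5637 CPM with PDGF-BB and fell by 0.12 ± 0.03 (adjusted p = 0.0114). Both calls were lost under 5 of 16 other settings of the block fit, with adjusted p up to 0.110 for COL5A1 (without control replicate 1) and 0.247 for COL5A2 (without replicate 2). COL11A1, which joins type V in heterotypic fibrils, stood at 63.5, 31.9 and 103 CPM in control and at 51.1, 19.6 and 88.1 CPM with PDGF-BB and fell by 0.39 ± 0.08 with the block (adjusted p = 0.00135). COL5A3 (−0.11 ± 0.05, adjusted p = 0.0956) and COL24A1 (−0.28 ± 0.12, adjusted p = 0.0559) did not pass.

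Outside the fibrillar class, COL6A3, the long chain of type VI collagen, stood at 778, 1714 and 910.2 CPM in control and at 1016, 2507 and 1293 CPM with PDGF-BB. It rose by 0.48 ± 0.04 with the block (adjusted p = 4.6e-07), with log2 differences of 0.39, 0.55 and 0.51 within the same-numbered pairs. The control and PDGF-BB groups overlapped, with replicate 2 above the rest in both, and the fit on groups alone gave adjusted p = 0.570. Its partner COL6A1 stood at 5622, 3693 and 5723 CPM in control and at 6205, 3952 and 6038 CPM with PDGF-BB and rose by 0.11 ± 0.04 with the block (adjusted p = 0.0321), a call lost under 7 of 16 other settings, with adjusted p up to 0.223 (with upper-quartile scaling).

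Of the fibril-associated genes, COL12A1, found on type I fibrils in tissues under tension, stood at 469, 927 and 407 CPM in control and at 571, 1105 and 571 CPM with PDGF-BB and rose by 0.34 ± 0.06 with the block (adjusted p = 0.000300). COL14A1, a related collagen of the fibril surface, stood at 922, 608 and 763 CPM in control and at 805, 531 and 737 CPM with PDGF-BB and fell by 0.15 ± 0.04 (adjusted p = 0.00621). The COL14A1 call ended without replicate 1 (adjusted p = 0.125) and without replicate 2 (adjusted p = 0.0692). In every library but those of replicate 2, COL12A1 was at or below 644 CPM. COL16A1 did not pass (−0.04 ± 0.04, adjusted p = 0.329).

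COL8A1, the network-forming type VIII chain, stood at 1781, 2167 and 1888 CPM in control and at 1549, 1735 and 1584 CPM with PDGF-BB, and all PDGF-BB libraries were below all control libraries. It fell by 0.26 ± 0.03 with the block (adjusted p = 2.8e-05), and the fit on groups alone gave adjusted p = 0.140. COL18A1, whose C-terminal fragment is endostatin, stood at 47.4, 43.1 and 59.7 CPM in control and at 59.0, 57.3 and 66.5 CPM with PDGF-BB and rose by 0.29 ± 0.08 with the block (adjusted p = 0.00747). Its fellow multiplexin COL15A1 stood at 2074, 1535 and 2554 CPM in control and at 2164, 1501 and 2535 CPM with PDGF-BB and differed by 0.01 ± 0.04 (adjusted p = 0.915). The basement membrane chain COL4A2 stood at 3259, 2223 and 3718 CPM in control and at 3495, 2186 and 3763 CPM with PDGF-BB, a difference of 0.03 ± 0.04 (adjusted p = 0.577). Among members that did not pass, estimates with the block ran from −0.51 to 0.45 in the 10 genes under 10 CPM.

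**Figure D2:**
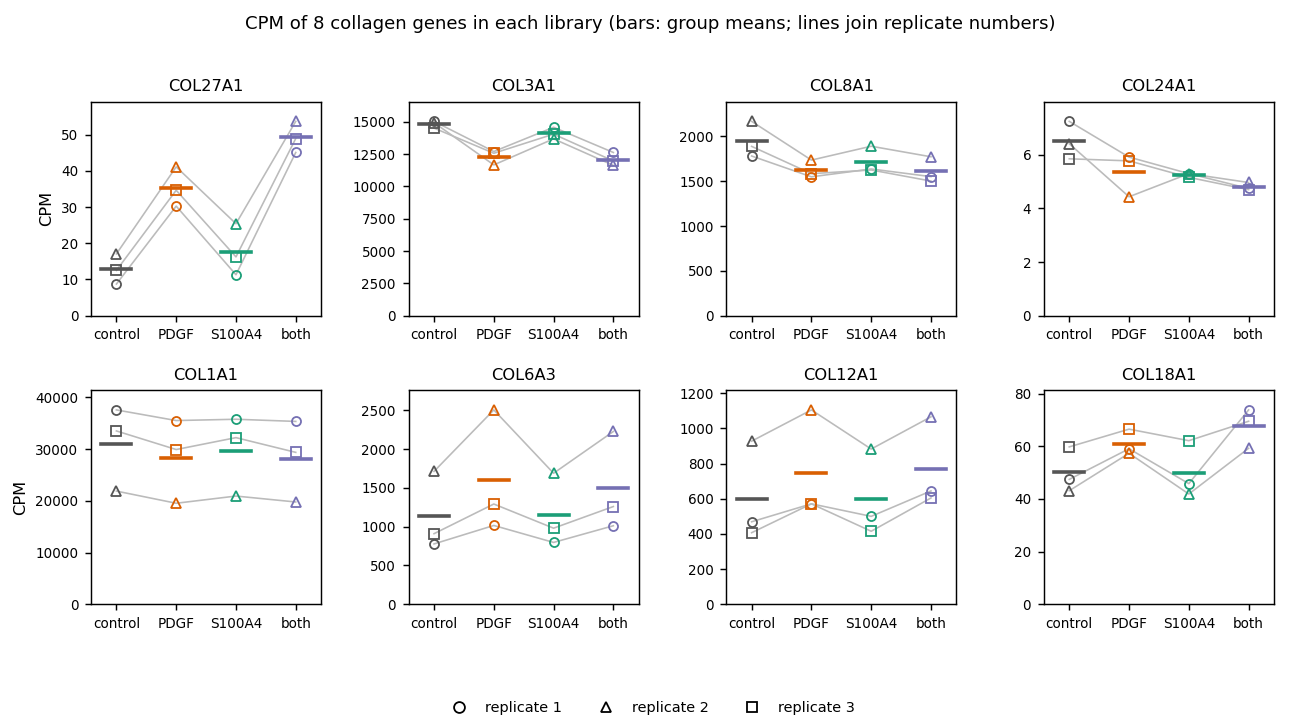
CPM of 8 collagen genes in each library, on axes that start at 0, with the 4 groups along the horizontal axis, symbols for replicates, grey lines joining libraries of the same number and bars for group means. COL27A1 separates the groups with PDGF-BB from those without, while in COL1A1, COL6A3 and COL12A1 the lines run nearly parallel at different heights, replicate 2 lowest in COL1A1 and highest in the other 2.

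With S100A4, changes of collagen genes were small. In the fit on groups alone none of the 28 was called, where 0.563% of all genes were called, and 1 of 28 (COL24A1) had an unadjusted p under 0.05, beside 6.16% of all genes. With DESeq2 none was called. With the block 2 of 28 were called, COL14A1 higher and COL8A1 lower, where 10.7% of all genes were called, 6.46% higher and 4.28% lower. All 3 pairs went 1 way in 14 of the 28, beside 47.8% of all genes. The count with the block was 0 without replicate 3, 1 without control replicate 3 and 4 without combination replicate 1 or 2, which enter through the shared estimate of spread and the block. The median log2 fold change was −0.06, beside −0.02 over all genes. Beside these, all 8 smooth muscle markers had negative estimates with S100A4 on groups alone, where none was called, and SMTN, LMOD1, ACTA2 and CNN1 fell with the block. Over all genes, 5571 of 12444 had positive estimates on groups alone. SMTN stood at 342, 299 and 366 CPM (−0.45 ± 0.05) and ACTA2 at 14271, 6554 and 14948 CPM, against 15101, 7617 and 17454 CPM in control (−0.18 ± 0.05). Of the fibroblast markers TCF21 and PDGFRA rose and PI16 fell with the block. The part of these markers in the collagen values was not tested.

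COL8A1 stood at 1636, 1889.8 and 1625 CPM with S100A4, below the control library of the same number in all 3 pairs (log2 differences −0.12, −0.20 and −0.22). It fell by 0.18 ± 0.03 with the block (adjusted p = 0.00349), and the call ended without replicate 3 (adjusted p = 0.0942). COL14A1 stood at 1048, 646 and 924 CPM and rose by 0.18 ± 0.04 (adjusted p = 0.00724), whereas with PDGF-BB it had fallen. S100A4 was not compared directly with PDGF-BB. The COL14A1 call was lost in 4 of 16 other settings: without replicate 1 (adjusted p = 0.0946), without replicate 3 (adjusted p = 0.173), without control replicate 3 (adjusted p = 0.0642) and without S100A4 replicate 1 (adjusted p = 0.0694).

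COL27A1 stood at 11.3, 25.4 and 16.2 CPM with S100A4, above its same-numbered control in all 3 pairs, and the difference of 0.46 ± 0.14 with the block did not pass (adjusted p = 0.0508). It passed in 5 of the 39 settings other than the fit on groups alone. COL24A1, which stood at 7.24, 6.41 and 5.85 CPM in control and at 5.30, 5.29 and 5.16 CPM with S100A4, did not overlap between the groups and gave −0.31 ± 0.12 (adjusted p = 0.121). Groups that did not overlap were found for 1 of 28 collagen genes and 9.72% of all genes. COL11A1 stood at 58.2, 23.0 and 89.4 CPM (−0.26 ± 0.08, adjusted p = 0.0630).

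The other fibrillar genes did not pass with S100A4. COL1A1 stood at 35785, 20928 and 32229 CPM (−0.06 ± 0.03, adjusted p = 0.231) and COL1A2 at 23363, 17343 and 21664 CPM (−0.10 ± 0.03, adjusted p = 0.0597). COL3A1 stood at 14584, 13687 and 14053 CPM (−0.07 ± 0.03, adjusted p = 0.184). The type V chain COL5A1 stood at 5579, 4145 and 5342 CPM and COL5A2 at 5658, 5244 and 5655 CPM. In each of these 5 genes the S100A4 libraries overlapped those of the controls.

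Among the remaining classes, COL6A1 stood at 5732, 3582 and 5932 CPM and COL6A3 at 797, 1689.8 and 981 CPM with S100A4, differences of 0.01 ± 0.04 and 0.04 ± 0.04 with the block. COL12A1 stood at 499.7, 882 and 415 CPM (0.01 ± 0.06) and COL18A1 at 45.8, 41.8 and 62.1 CPM (−0.01 ± 0.08). The type IV chain COL4A2 stood at 3321, 2122 and 3736 CPM, COL4A5 at 19.6, 29.4 and 14.7 CPM and COL15A1 at 2144, 1468 and 2420.2 CPM. None of these 7 passed in either fit.

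With both proteins together, 3 of the 28 collagen genes were called in the fit on groups alone, where 22% of all genes were called. COL27A1 rose, and COL3A1 and COL24A1 fell. The count was 0 without replicate 3 of all groups, and 1 without replicate 1 or without any 1 of control replicates 1 and 2, PDGF-BB replicate 1 and the 3 combination libraries. With the block 14 were called (6 higher and 8 lower; 13 without replicate 2), where 56.1% of all genes were called, 27.5% higher and 28.6% lower. The median log2 fold change of the 28 was −0.08, beside −0.03 over all genes. All 3 pairs went 1 way in 16, beside 70.3% of all genes, and the groups did not overlap in 5 (COL27A1, COL3A1, COL8A1, COL24A1 and COL5A2), beside 35.6%. All 3 comparisons with control share the same control libraries, so their values are given side by side and are not independent.

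COL27A1 reached 45.1, 53.6 and 48.9 CPM with both proteins, above every control library, and rose by 1.95 ± 0.30 in the fit on groups alone (edgeR, adjusted p = 0.00144). With the block it rose by 1.97 ± 0.13 (adjusted p = 2.1e-08, 3.93-fold). The call on groups alone ended without replicate 3 (adjusted p = 0.0669) and was kept by the block in all 16 settings tried.

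COL3A1 stood at 12632, 11635 and 11977 CPM with both proteins, below every control library, and fell by 0.30 ± 0.09 on groups alone (edgeR, adjusted p = 0.0331). That call was lost under 11 of 22 other settings of this fit (adjusted p up to 0.349, without replicate 1), while the call with the block (−0.30 ± 0.03, adjusted p = 2.9e-06) held in all 16. COL24A1 stood at 4.74, 4.96 and 4.70 CPM, below every control library, and fell by 0.44 ± 0.13 on groups alone (edgeR, adjusted p = 0.0419). It lost that call under 15 of 22 other settings (adjusted p up to 0.396, without replicate 1), and the call with the block (adjusted p = 0.00671) ended without replicate 1 (adjusted p = 0.101).

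Further fibrillar genes passed with both proteins in the fit with the block. COL1A1 stood at 35367, 19780.1 and 29379 CPM and fell by 0.14 ± 0.03 (adjusted p = 0.00136). COL1A2 stood at 22026, 16470.5 and 19784 CPM and fell by 0.19 ± 0.03 (adjusted p = 9.0e-05). COL11A1 stood at 51.5, 23.3 and 71.8 CPM and fell by 0.43 ± 0.08 (adjusted p = 0.000536). The type V chains again differed in sign. COL5A1 stood at 6732, 4532 and 5652 CPM and rose by 0.19 ± 0.05 (adjusted p = 0.00536), whereas COL5A2 stood at 5545, 5076 and 5479 CPM and fell by 0.10 ± 0.03 (adjusted p = 0.0201). The calls of COL1A1, COL5A1 and COL5A2 were lost under 1, 2 and 6 of 16 other settings of the block fit, the largest adjusted p being 0.0580 without replicate 3, 0.142 without replicate 1 and 0.200 without replicate 2.

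Outside the fibrillar class, COL6A3 stood at 1013, 2229 and 1260.3 CPM with both proteins and rose by 0.41 ± 0.04 with the block (adjusted p = 1.4e-06). COL6A1 stood at 6639.9, 3820.4 and 6195 CPM and rose by 0.13 ± 0.04 (adjusted p = 0.00742), a call lost in 3 of 16 other settings (adjusted p up to 0.160, without replicate 1). COL12A1 stood at 644, 1066 and 604 CPM and rose by 0.41 ± 0.06 (adjusted p = 4.6e-05). COL6A3, COL6A1 and COL12A1 thus rose within pairs, while the groups overlapped. The minor type VI chains did not pass (−0.29 ± 0.47 for COL6A5 and 0.22 ± 0.34 for COL6A6).

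COL8A1 stood at 1551, 1772 and 1501 CPM, below every control library, and fell by 0.27 ± 0.03 with the block (adjusted p = 1.2e-05). COL18A1 stood at 73.8, 59.2 and 69.5 CPM and rose by 0.44 ± 0.08 (adjusted p = 0.000335). COL4A5, a chain of the specialised type IV networks of kidney and smooth muscle, stood at 19.9, 31.4 and 16.2 CPM in control, 18.9, 29.5 and 15.6 CPM with PDGF-BB and 18.7, 26.4 and 15.2 CPM with both, and fell by 0.15 ± 0.06 with the block (adjusted p = 0.0454). Its call did not hold under 12 of 16 other settings (adjusted p up to 0.413, without replicate 2). COL14A1 (840.3, 561 and 756 CPM, adjusted p = 0.0672), COL4A2 (3777, 2172 and 3719.9 CPM, adjusted p = 0.236) and COL15A1 (2234, 1465 and 2409.7 CPM, adjusted p = 0.754) did not pass with the block. Upper-quartile scaling with the block called 16 members, 4 higher and 12 lower, and COL5A1 and COL6A1 were then positive but not called. On groups alone this scaling shifted the median log2 fold change of all genes by −0.072, so the tilt is not particular to collagen genes.

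**Figure D3:**
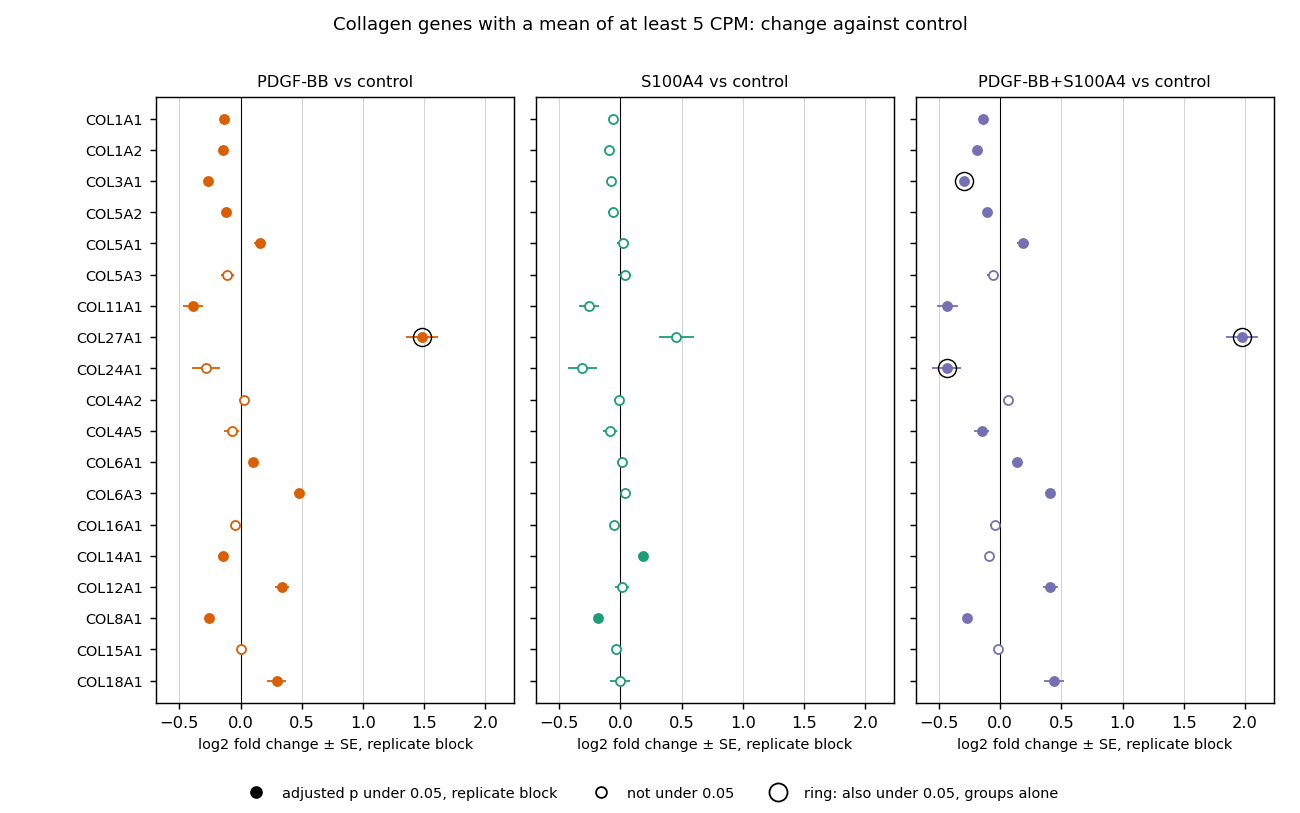
Log2 fold change ± SE against control from the fit with the replicate block, for the 19 collagen genes with a mean of at least 5 CPM, in 3 panels for PDGF-BB, S100A4 and both on a shared axis. Filled points have an adjusted p under 0.05 with the block, and rings mark those also under 0.05 in the fit on groups alone: COL27A1 with PDGF-BB, and COL27A1, COL3A1 and COL24A1 with both.

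Adding S100A4 to PDGF-BB was tested as the combination against PDGF-BB alone. No collagen gene was called in the fit on groups alone (edgeR), where 0.273% of all genes were called. None of the 28 had an unadjusted p under 0.05, beside 4.81% of all genes, and DESeq2 called none. With the block COL27A1 alone was called, where 7.14% of all genes were called. Every combination library of COL27A1 was above every PDGF-BB library, which held for 1 of the 28 and, in either direction, for 8.69% of all genes. COL27A1 rose by 0.49 ± 0.11 (adjusted p = 0.0176, log2 differences of 0.57, 0.38 and 0.50 within pairs). This call was lost in 6 of 16 other settings: without replicate 1 or 3 of all groups (adjusted p = 0.0558 and 0.203), without PDGF-BB replicate 2 or 3 (0.103 and 0.0643) and without combination replicate 1 or 3 (0.116 and 0.0877).

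Adding PDGF-BB to S100A4 was tested as the combination against S100A4 alone. COL27A1 was the 1 member called on groups alone (1.48 ± 0.30, edgeR, adjusted p = 0.00867), where 15% of all genes were called, and this call ended without replicate 1 (adjusted p = 0.105) or replicate 3 (adjusted p = 0.176), while 2 were called without replicate 2 or without S100A4 replicate 3. With the block 10 of 28 were called, 6 higher and 4 lower, where 47.8% of all genes were called, 24.9% higher and 22.9% lower. The genes that rose were COL27A1 (1.52 ± 0.12), COL18A1 (0.45 ± 0.08), COL12A1 (0.39 ± 0.06), COL6A3 (0.37 ± 0.04), COL5A1 (0.16 ± 0.05) and COL6A1 (0.12 ± 0.04). Those that fell were COL14A1 (−0.27 ± 0.04), COL3A1 (−0.22 ± 0.03), COL1A2 (−0.10 ± 0.03) and COL8A1 (−0.09 ± 0.03). Under 16 other settings of the block fit, COL5A1 lost its call in 5 (adjusted p up to 0.110, without replicate 1), COL6A1 in 5 (0.255, without replicate 1), COL1A2 in 3 (0.210, without replicate 3) and COL8A1 in 9 (0.199, without replicate 3). With the block and upper-quartile scaling, 12 were called, 4 higher and 8 lower. On groups alone this scaling shifted the median log2 fold change of all genes by −0.052.

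The interaction asks whether the log2 effect of S100A4 differed with and without PDGF-BB. No collagen gene passed in either fit, where 0% of all genes passed on groups alone and 0.113% with the block, and none of the 28 had an unadjusted p under 0.05 on groups alone, beside 1.22% of all genes. DESeq2 called none. For COL27A1 the interaction was 0.03 ± 0.18 with the block (adjusted p = 0.968). For COL8A1, lower with each single protein, it was 0.16 ± 0.05 (adjusted p = 0.305), and for COL14A1 −0.12 ± 0.05 (adjusted p = 0.516).

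Collagen levels differed strongly between replicate numbers. In 18 of the 28 tested genes, the 4 libraries of replicate 2 did not overlap the other 8, which held for 21.2% of all genes. In 8 they were higher and in 10 lower, beside 9.43% and 11.7% of all genes. COL6A5, COL6A6 and COL4A6, counted among the 8, had most of their reads in replicate 2 and passed the filter on low counts through it. Their lack of overlap thus followed largely from how they entered the tested set, and they say little about the contrast with all genes. COL13A1, counted among the 10, had 1 to 11 counts in replicate 2 and 11 to 41 elsewhere. It passed the filter through the other replicates, so its lack of overlap is also tied in part to how it entered. How many of all genes passed through replicate 2 alone, or through the other replicates alone, was not computed. The comparison was chosen because replicate 2 stood apart, so no test is given.

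Among fibrillar genes, COL5A3 stood at 61.1 to 68.2 CPM in replicate 2 and at 214 to 265 CPM elsewhere. COL11A1 stood at 19.6 to 31.9 CPM against 51.1 to 103 CPM. COL1A1 stood at 19535 to 21889.9 against 29379 to 37590.5 CPM. COL3A1, COL5A2, COL24A1 and COL27A1 overlapped. Others lower in replicate 2 were COL1A2, COL5A1, COL4A2, COL6A1, COL14A1, COL15A1 and COL13A1.

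COL6A3 stood at 1689.8 to 2507 CPM in replicate 2 and 778 to 1293 CPM elsewhere. COL12A1 stood at 882 to 1105 against 407 to 644 CPM. COL17A1, a transmembrane collagen of epithelial hemidesmosomes, stood at 4.64 to 5.63 against 0.955 to 1.77 CPM. Reads of the minor type VI chains came almost only from replicate 2: COL6A6 had 28 to 65 counts there and at most 1 elsewhere, and COL6A5 had 17 to 29 and at most 1. COL4A6 had 21 to 39 counts in replicate 2 and at most 10 elsewhere. COL4A5 and COL23A1 were also higher in replicate 2.

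Markers of the labelled cell type and of others differed along with these collagens. The summed CPM of 8 smooth muscle markers, all past the filter, was 7917 to 9303 in replicate 2, 17548 to 19410.3 in replicate 1 and 18370.1 to 21892 in replicate 3. That of 7 fibroblast markers, all tested, was 963 to 1111, 439.5 to 519 and 333 to 358 in the same order, and that of 5 pericyte markers 312 to 420.4, 1129.7 to 1737 and 1493 to 1918. These sums rest on a few abundant genes (ACTA2, LUM, CSPG4 and NOTCH3), and some members went the other way. The fibroblast marker MFAP5 was lower in replicate 2, at 20.4 to 23.4 CPM against 44.4 to 73.9 CPM elsewhere, and the pericyte marker RGS5 higher, at 6.16 to 7.40 against 0.267 to 2.02 CPM. Endothelial markers (5 of 7 tested) summed to 139.6 to 220.2, 55.3 to 133 and 79.3 to 157 CPM, and chondrocyte markers (3 of 6 tested) to 9.16 to 18.6, 10.6 to 16.0 and 4.77 to 8.68 CPM. Macrophage markers (3 of 5 tested) stayed at or under 11.15 CPM and Schwann and epithelial markers, none of which passed the filter, at or under 0.563 CPM. The defining contractile genes ACTA2, MYH11 and CNN1 were detected in every library. TAGLN, another smooth muscle marker, was low in all libraries, at 3.21 to 7.21 CPM, and the pan-leukocyte gene PTPRC had 0 counts in all 12. Their part in the collagen levels was not tested.

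Type I, V and VI collagens are built from different chains, and counts of their chains were also compared as ratios within each library. Transcript length is the same in every library, so only changes of a ratio between libraries are read. COL1A1 per COL1A2 was 1.53 to 1.61 in replicate 1, 1.15 to 1.21 in replicate 2 and 1.45 to 1.49 in replicate 3, and the 4 groups lay close together within a number. COL6A1 per COL6A3 was 6.11 to 7.23, 1.58 to 2.16 and 4.67 to 6.29 in replicates 1, 2 and 3. It was 7.23, 2.16 and 6.29 in control and 6.11, 1.58 and 4.67 with PDGF-BB, lower in each pair. COL5A1 per COL5A2 was 0.914, 0.765 and 0.877 in control, 1.13, 0.943 and 1.02 with PDGF-BB, 0.986, 0.790 and 0.945 with S100A4 and 1.21, 0.893 and 1.03 with both. All 3 PDGF-BB libraries had a higher ratio than every control library.

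**Figure D4:**
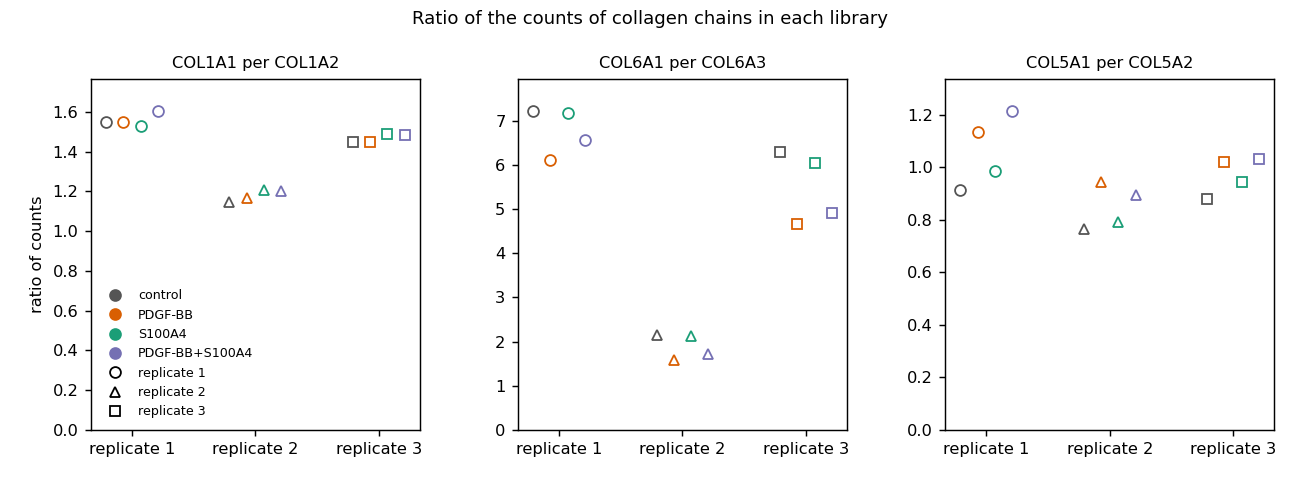
Ratio of raw counts of collagen chains in each of the 12 libraries, COL1A1 per COL1A2, COL6A1 per COL6A3 and COL5A1 per COL5A2, on axes that start at 0, with libraries placed by replicate number and coloured by group. Replicate 2 is lowest in the first 2 panels, and in the third each PDGF-BB and combination library lies above the control of its number.

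Further ratios were computed across proteins of a class. COL3A1 per COL1A1 was 0.588 to 0.683 in replicate 2, against 0.357 to 0.408 and 0.408 to 0.436 in replicates 1 and 3. COL12A1 per COL14A1 was 0.509, 1.53 and 0.533 in control and 0.709, 2.08 and 0.774 with PDGF-BB, higher in every pair, and 0.477, 1.37 and 0.449 with S100A4, lower in every pair. The ratios are descriptions with no test.

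Several collagen genes are chromosome neighbours. Of the 37 genes, 36 had a RefSeq position on Sscrofa11.1, found by symbol. COL3A1 (chr15:93556914-93595678) and COL5A2 (chr15:93611856-93981131) lie 16177 bases apart and both fell with PDGF-BB with the block, by 0.27 ± 0.03 and 0.12 ± 0.03. COL6A6 (chr13:1817475-1985968) and COL6A5 (chr13:2029543-2174404) lie 43574 bases apart, and both had nearly all their reads in replicate 2. COL4A6 (chrX:88634925-88750938) and COL4A5 (chrX:88958837-89183306) lie 207898 bases apart and were both higher in replicate 2. The annotated spans of COL4A4 and COL4A3 overlap, so reads in that stretch are uncertain between them. Of the genes named most here, COL1A1 lies at chr12:26379087-26397180, COL1A2 at chr9:74174484-74210407, COL6A3 at chr15:137011549-137103687, COL8A1 at chr13:159216138-159374718, COL12A1 at chr1:90744409-90875127 and COL18A1 at chr13:207907835-207984082.

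Genes that modify, process and bind collagens were read from 3 lists. The folding and modification list holds prolyl and lysyl hydroxylases and chaperones of the endoplasmic reticulum, and 17 of its genes were tested. With PDGF-BB, 2 rose on groups alone, and 7 rose and 4 fell with the block, beside 14.7% of all genes called on groups alone and 48.8% with the block. With S100A4 none passed in either fit (edgeR), beside 0.563% and 10.7% of all genes. With both proteins 4 rose on groups alone, and 9 rose and 4 fell with the block, beside 22% and 56.1%. Medians were 0.07, −0.01 and 0.12 for the 3 comparisons, beside −0.02, −0.02 and −0.03 over all genes.

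PLOD1, a lysyl hydroxylase, stood at 301, 383 and 289.6 CPM in control and at 434, 473 and 420.4 CPM with PDGF-BB and rose by 0.45 ± 0.13 on groups alone (edgeR, adjusted p = 0.0429). TMEM38B, an endoplasmic reticulum cation channel linked to collagen modification, stood at 8.45, 8.10 and 8.25 CPM in control and at 12.3, 13.7 and 11.6 CPM with PDGF-BB and rose by 0.60 ± 0.11 (adjusted p = 0.00595). In both genes every PDGF-BB library was above every control library. PLOD3 (0.17 ± 0.04, adjusted p = 0.00154) and SERPINH1, the collagen chaperone HSP47 (0.15 ± 0.04, adjusted p = 0.00359), rose with the block. With both proteins PLOD1, PLOD3, P3H1 and TMEM38B rose on groups alone, by 0.46 ± 0.13, 0.35 ± 0.10, 0.28 ± 0.08 and 0.54 ± 0.11. These calls on groups alone were lost under 2 to 15 of 22 other settings, with adjusted p up to 0.419 for PLOD1 with PDGF-BB (without replicate 1), whereas with the block they held in all 16.

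Of the 14 tested genes for processing and crosslinking, none passed on groups alone with PDGF-BB, and 5 rose and 3 fell with the block, where 48.8% of all genes were called. With S100A4 none passed on groups alone and 2 rose with the block, where 10.7% of all genes were called. With both, 2 rose and 1 fell on groups alone, and 6 rose and 3 fell with the block, where 22% and 56.1% of all genes were called. The list's counts with the block for PDGF-BB and for both were near these shares. BMP1, the procollagen C-proteinase, stood at 305, 262 and 278 CPM in control, 376, 314 and 337 with PDGF-BB, 325, 302 and 296 with S100A4 and 440.0, 377 and 413 CPM with both. With the block it rose by 0.28 ± 0.04, 0.13 ± 0.04 and 0.54 ± 0.04 (adjusted p = 3.8e-05, 0.0457 and 4.7e-08), and the S100A4 call was lost under 14 of 16 other settings (adjusted p up to 0.297, without S100A4 replicate 2). ADAMTS14, a procollagen N-proteinase, had means of 10.1 ± 3.39, 14.7 ± 4.53, 12.8 ± 3.85 and 18.5 ± 5.81 CPM in the same groups (± SD, n = 3) and rose with the block in all 3 comparisons (0.55 ± 0.07, 0.35 ± 0.07 and 0.88 ± 0.07), with the S100A4 call lost under 2 of 16 (adjusted p up to 0.0748, without replicate 3). LOX, the lysyl oxidase that crosslinks collagen, stood at 513, 454 and 471 CPM in control and at 384, 358 and 376 CPM with both, and fell by 0.36 ± 0.08 on groups alone (edgeR, adjusted p = 0.00870; 0.181 without replicate 1), a fall that held in all 16 settings with the block. ADAMTS3, a related N-proteinase named after its values were seen, rose with both on groups alone (1.01 ± 0.28, edgeR, adjusted p = 0.0268) and with the block (adjusted p = 0.000946). The ADAMTS3 calls were not rechecked with libraries left out. SPARC, a collagen-binding matricellular protein, fell with PDGF-BB by 0.20 ± 0.03 with the block, and PCOLCE2, an enhancer of BMP1, rose by 0.33 ± 0.05 with both.

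Of 8 tested genes for receptors and uptake, 2 rose and 1 fell on groups alone with PDGF-BB, and 4 rose and 4 fell with the block, where 14.7% and 48.8% of all genes were called. With both, 2 rose and 1 fell on groups alone and 3 rose and 3 fell with the block, where the shares of all genes were 22% and 56.1%. With S100A4 none passed on groups alone and 1 fell with the block, where the shares were 0.563% and 10.7%. ITGA2, the subunit of a collagen-binding integrin, stood at 0.885, 0.949 and 1.32 CPM in control, 5.87, 9.19 and 11.2 with PDGF-BB, 0.890, 1.51 and 1.83 with S100A4 and 10.0, 13.5 and 14.1 CPM with both. It rose on groups alone with PDGF-BB and with both (adjusted p = 0.000339 and 8.7e-05), and with the block by 3.06 ± 0.15 and 3.59 ± 0.14. ITGA10, another collagen-binding integrin subunit, stood at 25.7, 38.1 and 27.5 CPM in control and at 43.6, 58.7 and 49.1 CPM with PDGF-BB and rose by 0.73 ± 0.17 on groups alone (edgeR, adjusted p = 0.0168; 0.211 without replicate 3).

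DDR2, a receptor tyrosine kinase that binds fibrillar collagen, stood at 102, 111 and 98.5 CPM in control, 82.8, 81.5 and 86.2 with PDGF-BB and 83.4, 80.8 and 80.4 CPM with both, with no overlap between control and either treatment. It fell by 0.31 ± 0.06 with PDGF-BB and 0.35 ± 0.06 with both on groups alone (edgeR, adjusted p = 0.00916 and 0.00364; 0.197 and 0.0989 without replicate 1), and these falls and the ITGA10 rise held in all 16 settings with the block. ITGA11, a receptor subunit for fibrillar collagen, stood at 491, 364 and 443 CPM in control, 381, 261 and 379 with PDGF-BB, 443, 302 and 426 with S100A4 and 389.6, 266 and 358 CPM with both. With the block it fell by 0.36 ± 0.04, 0.16 ± 0.04 and 0.37 ± 0.04 in the 3 comparisons with control (adjusted p = 1.4e-05, 0.0303 and 7.6e-06). The S100A4 call of ITGA11 was lost under 7 of 16 other settings (adjusted p up to 0.252, without replicate 1).

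**Figure D5:**
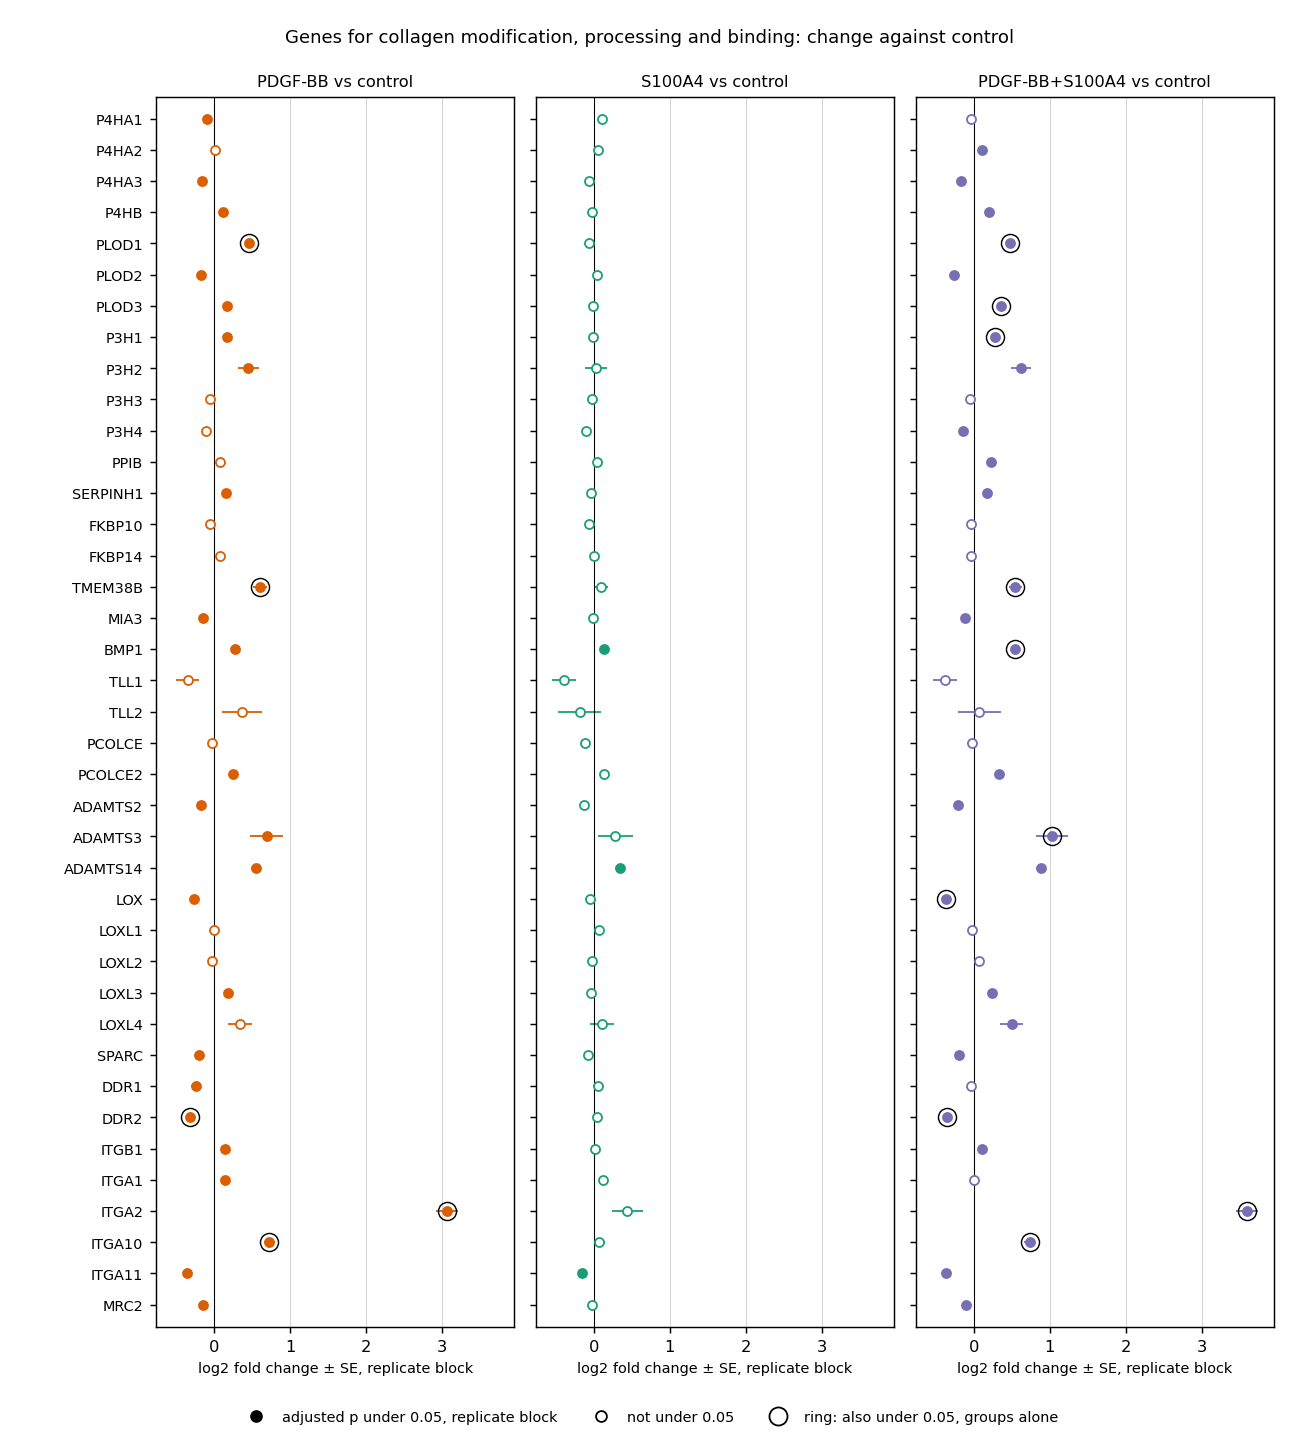
Log2 fold change ± SE against control, fit with the replicate block, for 39 tested genes for collagen modification, processing and binding, in 3 panels for PDGF-BB, S100A4 and both on a shared axis. Filled points have an adjusted p under 0.05 with the block and rings mark those also under 0.05 on groups alone. ITGA2 is far to the right in the PDGF-BB and combination panels, and most S100A4 values lie near 0.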

How the data were processed

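The values are raw read counts per gene as the authors deposited them, whole numbers for 21153 genes in 12 libraries. The submitters' processing notes name CASAVA 1.8.2, STAR 2.4, featureCounts 1.4.6 and the build Sscrofa11.1. How strand and multi-mapped reads were handled is not given in the sources used here, so reads of near-identical or overlapping genes may be split or lost. Samples were grouped by the treatment in their labels. Symbols came from a table of Ensembl names, which matched 14572 of the 21153 identifiers (10833 of the 12444 tested), and positions from RefSeq.

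Genes passed edgeR's filterByExpr with a minimum count of 10. Library sizes were scaled by the trimmed mean of M-values, and edgeR 4.0.16 (R 4.3.3) fitted all 12 libraries and tested 5 comparisons and the interaction, with p-values adjusted over 12444 genes. Total counts of 21455021 to 32448438 set the precision. Alternatives were DESeq2 1.42.0, other scalings, no filter, fits on the compared groups only, the replicate block and leaving out libraries; block fits without a single library were added after the data were seen. Same-numbered libraries deviated together in all 18 pairs, so the block is printed where it changed a call. No library repeated another of its own group: between replicates of a group, chi-square per gene was 22.0 to 159. Libraries of different groups were not compared in this way. Values in each library were given for collagen genes with an adjusted p under 0.05 in any comparison and either fit and for main chain partners, and, of each pathway list, for at most 4 genes per comparison with control, taken by smallest adjusted p with the block. The collagen genes and all lists were chosen with earlier results of these data known. The fits were tested on simulated counts first. Sequences and transcript lengths were not used here.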

Additional observations from a re-analysis of the deposited data

How the results depend on the processing

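The number of collagen genes called rested mainly on whether the replicate block, which pairs libraries of the same number, was used. The same held for all genes. On groups alone and with the block, 14.7% and 48.8% of all genes were called for PDGF-BB against control. The shares were 0.563% and 10.7% for S100A4, and 22% and 56.1% for both against control. For both they were 0.273% and 7.14% against PDGF-BB, and 15% and 47.8% against S100A4. For the other settings below, shares over all genes are not given. With PDGF-BB against control, 1 gene was called on groups alone, 2 with DESeq2, relative log expression scaling or upper-quartile scaling (COL27A1 and COL3A1), 13 with the block, 14 with the block and upper-quartile scaling, and, with a replicate or library left out, 0 to 1 on groups alone and 9 to 13 with the block. With S100A4 these were 0 on groups alone, 2 with the block, 4 with the block and upper-quartile scaling, and 0 to 4 with the block and a library left out. With both against control, 3 were called on groups alone, 1 with no filter or only the groups compared, 14 with the block, 16 with the block and upper-quartile scaling, and, with a replicate or library left out, 0 to 4 on groups alone and 10 to 15 with the block. With both against PDGF-BB, the counts were 0 on groups alone, 1 with the block or the block and upper-quartile scaling, and 0 to 1 with a library left out of the block fit. With both against S100A4, they were 1 on groups alone, 2 with DESeq2, 10 with the block, 12 with the block and upper-quartile scaling, and, with a replicate or library left out, 0 to 2 on groups alone and 7 to 12 with the block. The interaction gave 0 in every setting run. The cause of these shifts was not tested.

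The 70 gene results rechecked here had mostly been called already in either fit. Each was recomputed in 39 other settings, which include the block fits, and set against the fit on groups alone. Of 2730 recomputed gene values, 1866 stayed on the same side of the threshold, 744 newly passed it, 97 no longer did and 23 changed sign. Many of the 744 repeat calls already made with the block: COL6A3 with PDGF-BB newly passed in 17 settings. The tally thus says little about how firm the calls are. All 23 sign changes came on groups alone with a single library left out, which leaves the groups unbalanced over the replicate numbers. With PDGF-BB the ranges over the 39 other settings were −0.074 to 0.77 for COL12A1, −0.33 to 0.079 for COL1A1, −0.071 to 0.29 for COL6A1, −0.90 to 0.15 for COL11A1, −0.29 to 0.014 for COL14A1 and −0.41 to 0.036 for SPARC. With both against control they were −0.34 to 0.063 for COL1A1, −0.031 to 0.36 for COL6A1, −0.82 to 0.035 for COL11A1 and −0.41 to 0.16 for COL4A5. With both against S100A4 they were −0.082 to 0.34 for COL6A1, −0.025 to 0.74 for COL6A3 and −0.22 to 0.0081 for COL1A2, and with S100A4 −0.26 to 0.011 for ITGA11. Low counts limit the 10 tested genes under 10 CPM.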
